A study of Arabidopsis thaliana with 20 samples.

Results

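UGT76C1, UGT76C2 and UGT76B1 are glycosyltransferase genes of Arabidopsis thaliana, and their transcripts were followed over all 10 groups of an array study of callus induction. The members were the probe sets that the array's probe-to-gene table names UGT76C1, UGT76C2 or UGT76B1. This gave 3 probe sets, 1 for each gene, of the 22746 on the array that are not controls. The same table names 8 UGT76 genes in all, and with members known by locus tag only it holds 18 of a list of 19 UGT76 genes.

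The study used hypocotyl segments of 3 genotypes, the wild type Landsberg erecta (Ler) and the mutants ckh1-1 and ckh2-1, and every group comprised 2 arrays. Seedlings were raised for 10 days in dim light, and their segments spent 3 days in continuous light on callus induction medium, which carried the auxin 2,4-D at 100 ng/ml in every group. Each genotype received the cytokinin kinetin at 0, 25 or 200 ng/ml, and a further wild type group received 100 ng/ml of trichostatin A (TSA), which blocks histone deacetylases, and no kinetin. The question in the title of the study is how CKH1 and CKH2 affect cytokinin responses in tissue culture. Each mutant is represented by 1 allele. CKH1 encodes a factor associated with the TATA-binding protein, and CKH2 is the chromatin remodeller PICKLE. Neither gene's own transcript was analysed here.

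Family 1 glycosyltransferases attach a sugar from a UDP-sugar to small molecules such as hormones, which usually changes their activity, transport or storage. UGT76C1 and UGT76C2 are the cytokinin N-glucosyltransferases of Arabidopsis: they place glucose on nitrogen atoms of the adenine ring of cytokinins, a modification regarded as inactivating. UGT76B1 acts outside the cytokinin pathway, on salicylic acid, isoleucic acid and N-hydroxypipecolic acid, and is known from plant defence. UGT76C2 and UGT76C1 lie next to each other on chromosome 5, followed by the locus-tag genes AT5G05880, AT5G05890 and AT5G05900 with no other gene between these 5. UGT76B1 is on chromosome 3. Probe sequences were not used here, so cross-hybridisation among these related neighbours was not tested.

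Values are MAS5 signals on the linear scale, and a median array signal lay between 92.6 and 137. All replicate 1 arrays were scaled to a trimmed mean of 310.9 and all replicate 2 arrays to 236.9, a ratio of 1.31, so replicate 1 reads higher for this reason alone and the SD of a deposited signal includes it. Fold changes are on the scale of log2(signal + 27.39) ± SE, which understates changes of dim probe sets, and are called where limma's Benjamini-Hochberg adjusted p over 15469 tested probe sets is under 0.05. Fold changes within a replicate number do not contain the scaling difference and are given beside the pooled ones. Of the callus and lateral root founder markers, LBD16, LBD29 and PUCHI were named on the array, and over the arrays their signals ran from 91.9 to 1672, 80.1 to 818 and 43.1 to 830. No marker of green tissue, xylem or epidermis was matched. In bulk tissue, fewer cells of a type and less RNA per cell cannot be told apart. No label says that replicates were separate cultures. The p-values measure the spread between these arrays, which as deposited includes the scaling difference, and the number of arrays limits the precision.

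The calls differed between the 3 genes, but the genes were not tested against each other. UGT76C2 fell with the higher level of kinetin when the 3 genotypes were averaged. Within genotypes this fall was called as deposited in ckh1-1, and not in wild type or ckh2-1. UGT76C1, which stayed near the filter cutoff, passed the test in no comparison, and UGT76B1 rose with TSA in wild type. Of 28 comparisons of groups, UGT76C2 was called in 2, UGT76B1 in 2 and UGT76C1 in 0. For UGT76C1 limma's unadjusted p was under 0.05 in 0 of the 28, and 0 were called by limma under each of the other scalings.

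**Figure D1:**
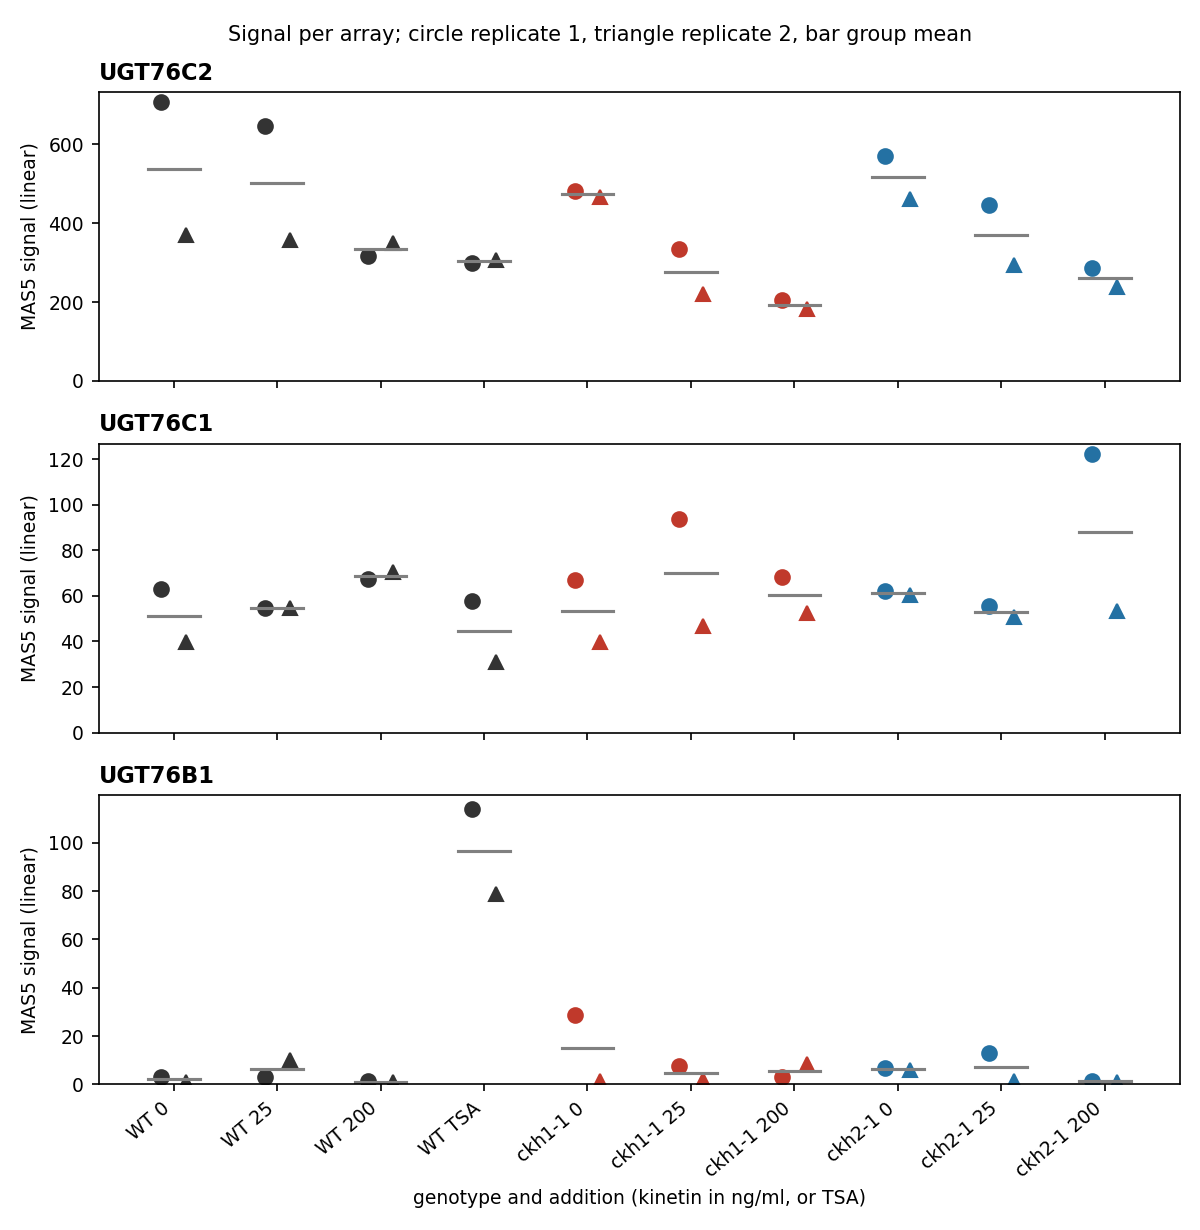
MAS5 signal (linear scale) of UGT76C2, UGT76C1 and UGT76B1 on each of the 20 arrays, with circles for replicate 1, triangles for replicate 2 and grey bars for group means, by genotype and addition. UGT76C2 was lowest in ckh1-1 at 200 ng/ml kinetin, and UGT76B1 lay at 114 and 78.9 with TSA and at 28.9 or lower on the other 18 arrays.

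UGT76C2, the first of the cytokinin N-glucosyltransferases described here, was above the filter in all 10 groups. In wild type its signal was 706 and 369 (replicates 1 and 2) without kinetin, 646 and 358 at 25 ng/ml, and 317 and 350 at 200 ng/ml. Both arrays at 200 ng/ml lay below both arrays without kinetin, but replicate 2 without kinetin lay only a little above them and far below replicate 1. In ckh1-1 it was 481 and 467 without kinetin, 334 and 219 at 25 ng/ml, and 205 and 182 at 200 ng/ml. The 3 ckh1-1 groups did not overlap. In ckh2-1 it was 571 and 462 without kinetin, 446 and 294 at 25 ng/ml, and 286 and 238 at 200 ng/ml, again with no overlap between the 3 levels.

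Within each genotype and replicate number the signal fell from 0 to 25 and again from 25 to 200 ng/ml, in 6 of 6 series. Of all tested probe sets, 2.77% fell in this way in all 6 series. The drop in wild type replicate 2 was small, from 369 through 358 to 350.

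**Figure D2:**
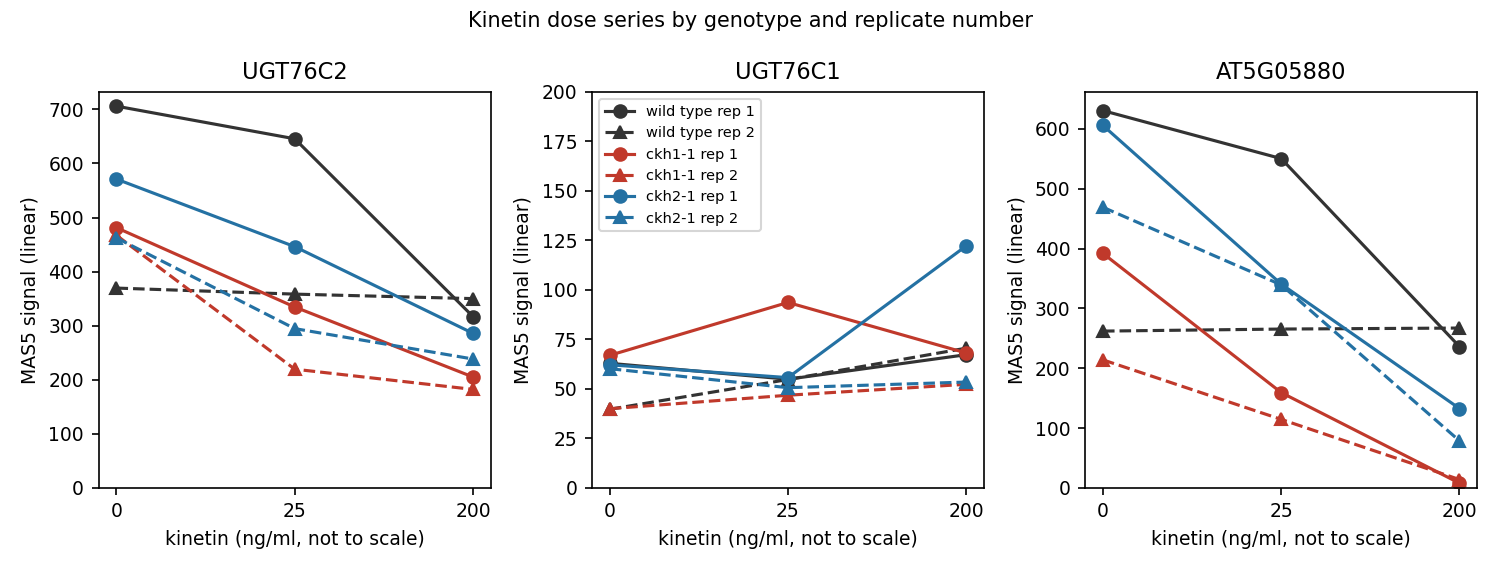
MAS5 signal (linear scale, with a different range in each panel) of UGT76C2, UGT76C1 and the neighbouring gene AT5G05880 at 0, 25 and 200 ng/ml kinetin, with 1 line per genotype and replicate number. All 6 lines of UGT76C2 fall at both steps, those of UGT76C1 do not share a direction, and AT5G05880 falls in 5 of 6.

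Averaged over the 3 genotypes, UGT76C2 fell at 200 ng/ml against no kinetin by 0.89 ± 0.18 on the log2 scale (6 arrays against 6, adjusted p = 0.00123). The change was -1.05 in replicate 1 and -0.73 in replicate 2. In this comparison 19.8% of all tested probe sets were called, and 10.5% of all tested were called lower. UGT76C2 ranked 626 from the lowest of 15469. The median of all tested probe sets was -0.05. The call held under all 29 alternative settings run, with a highest adjusted p of 0.00629 when replicate 1 of wild type without kinetin was left out.

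The founder markers moved with kinetin in the same segments. The summed signal of the 3 markers was 2195 and 1944 in wild type without kinetin and 1371 and 808 at 200 ng/ml. In ckh1-1 it went from 1483 and 1188 to 413 and 262, and in ckh2-1 from 1323 and 1290 to 451 and 265. In each genotype both arrays at 200 ng/ml lay below both without kinetin, as for UGT76C2. Other groups did not all follow this. With TSA the sum was highest, at 2805 and 2880, where UGT76C2 was at 300 and 306. In ckh2-1 at 25 ng/ml the sum was 1571 and 840, with replicate 1 above both arrays without kinetin. Without kinetin both ckh1-1 sums lay below both wild type sums, while UGT76C2 overlapped. The part of cell composition in the fall of UGT76C2 was not tested.

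Within genotypes, the fall was called in ckh1-1, where UGT76C2 fell by 1.18 ± 0.32 at 200 ng/ml (adjusted p = 0.0178). Both replicate numbers gave a similar change, -1.13 and -1.24, and 11% of tested probe sets were called in this comparison. The call was lost when any 1 of the 4 arrays was left out, with adjusted p from 0.0709 to 0.122. In ckh2-1 the change was -0.91 ± 0.32 (adjusted p = 0.0947), with -0.93 and -0.88 in the replicates, and in a background of 8.27% called. With every array rescaled to a common trimmed mean, the ckh2-1 change was called (-0.91, adjusted p = 0.00627), as were 20.8% of all tested probe sets. In wild type it was -0.58 ± 0.32 (adjusted p = 0.581), made up of -1.09 in replicate 1 and -0.07 in replicate 2, with 3.06% of probe sets called.

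The size of the fall was not shown to differ between genotypes. The ckh1-1 response to 200 ng/ml minus that of wild type was -0.60 ± 0.45 (adjusted p = 0.999), with a 95% interval from -1.54 to 0.34. The same difference was -0.33 ± 0.45 for ckh2-1, with an interval from -1.27 to 0.61, in a comparison with 0.362% of probe sets called. In replicate 1 these differences were -0.04 and 0.16, and in replicate 2 they were -1.17 and -0.81, so by this split they came from replicate 2. Both differences contain the same wild type arrays, which without kinetin were at 706 and 369.

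At 25 ng/ml the changes were smaller and none was called on the deposited scale. UGT76C2 was at -0.08 ± 0.32 in wild type, -0.75 ± 0.32 in ckh1-1 (adjusted p = 0.395) and -0.47 ± 0.32 in ckh2-1. Averaged over genotypes the change was -0.43 ± 0.18 (adjusted p = 0.364). Rescaling to a common trimmed mean brought the ckh1-1 change (-0.75, adjusted p = 0.0422) and the average (-0.44, adjusted p = 0.0405) past the threshold, in backgrounds of 7.51% and 7.87% called. As deposited, limma called 1.93% of tested probe sets at 25 ng/ml in ckh1-1, 0.0905% in ckh2-1 and 2.35% on average. In wild type it called 0 (0%), and 243 had an unadjusted p under 0.05.

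Between genotypes, UGT76C2 did not separate without kinetin. The log2 difference of ckh1-1 from wild type was -0.11 ± 0.32 at 0 ng/ml, -0.77 ± 0.32 at 25 ng/ml (adjusted p = 0.332, with 2.33% of probe sets called) and -0.71 ± 0.32 at 200 ng/ml (adjusted p = 0.336). At 25 and 200 ng/ml both ckh1-1 arrays lay below both wild type arrays, and at 0 ng/ml the groups overlapped. Averaged over the 3 levels the difference was -0.53 ± 0.18 (adjusted p = 0.0815, with 9.96% of probe sets called), -0.66 in replicate 1 and -0.39 in replicate 2. On rescaled arrays it was called (-0.53, adjusted p = 0.00537), as were the differences at 25 ng/ml (adjusted p = 0.0374) and 200 ng/ml (adjusted p = 0.0404). The rescaled backgrounds were 21.4%, 7.63% and 11.8% called. For ckh2-1 the average difference from wild type was -0.23 ± 0.18 (adjusted p = 0.625), with a 95% interval from -0.62 to 0.15. In that comparison 9.98% of probe sets were called.

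TSA-treated wild type segments had UGT76C2 signals of 300 and 306. Both arrays lay below the 706 and 369 of untreated wild type and below the 317 and 350 at 200 ng/ml kinetin. The change against no addition was -0.71 ± 0.32 (adjusted p = 0.181), -1.16 in replicate 1 and -0.25 in replicate 2, and it was called on rescaled arrays (-0.70, adjusted p = 0.0209), as were 30.1% of all tested probe sets. Against 200 ng/ml kinetin it was -0.13 ± 0.32 (adjusted p = 0.875), with a 95% interval from -0.79 to 0.54. The share of tested probe sets called was 11% against no addition and 11.7% against kinetin.

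In all, rescaling raised the calls of UGT76C2 from 2 to 9 of 28 comparisons, all of them lower. The order of its 10 groups by mean log2 signal, from the highest, began with ckh2-1 without kinetin, wild type without kinetin, wild type at 25 ng/ml and ckh1-1 without kinetin. Next came ckh2-1 at 25 ng/ml and wild type at 200 ng/ml, then wild type with TSA, ckh1-1 at 25 ng/ml and ckh2-1 at 200 ng/ml, and last ckh1-1 at 200 ng/ml. Neighbours in this order overlapped in their arrays at every step except between these 4 blocks. On rescaled arrays the order was the same, and wild type at 200 ng/ml then overlapped with TSA.

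**Figure D3:**
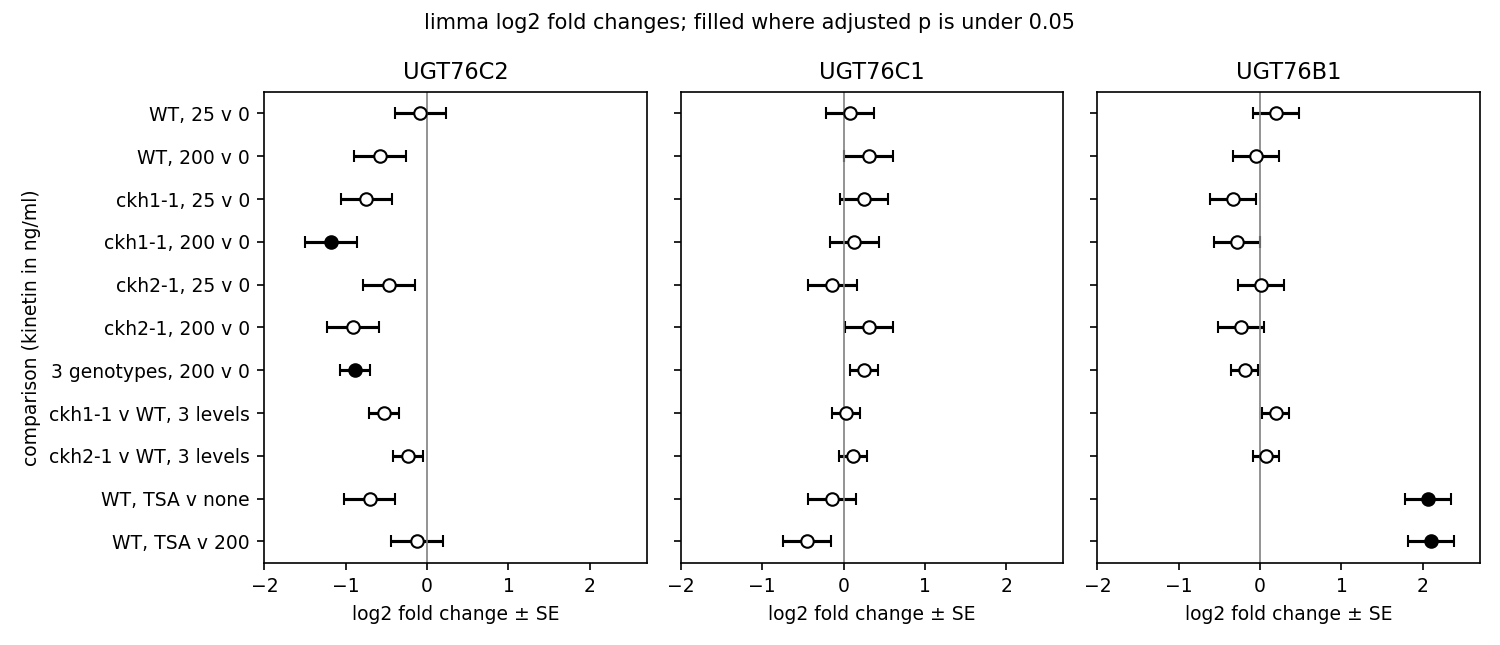
Log2 fold changes ± SE from limma for UGT76C2, UGT76C1 and UGT76B1 in 11 comparisons, with filled points where the adjusted p is under 0.05. UGT76C2 lies below 0 throughout and is filled in ckh1-1 at 200 ng/ml and for the 3 genotypes together, UGT76C1 has no filled point, and UGT76B1 is filled in both TSA comparisons.

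UGT76C1, the second cytokinin N-glucosyltransferase and the direct neighbour of UGT76C2, stayed near the filter cutoff, a signal of 66.5. Its group means exceeded the cutoff in 3 of 10 groups: ckh2-1 and wild type at 200 ng/ml and ckh1-1 at 25 ng/ml. Over all 20 arrays the signal ran from 31.1 to 122 with a median of 56.8. Every pair of neighbours in the order of groups overlapped.

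In wild type UGT76C1 was at 62.9 and 39.7 without kinetin, 54.9 and 54.7 at 25 ng/ml, 67.3 and 70.6 at 200 ng/ml, and 57.9 and 31.1 with TSA. In ckh1-1 it was at 67.0 and 39.97 without kinetin, 93.7 and 46.8 at 25 ng/ml, and 68.1 and 52.3 at 200 ng/ml. In ckh2-1 it was at 62.2 and 60.2, then 55.7 and 50.6, then 122 and 53.4. As deposited, the wild type arrays at 200 ng/ml lay above both arrays without kinetin, and those of either mutant did not. On rescaled arrays ckh1-1 separated in this way too, with a mean of 60.2 (SD 0.32) at 200 ng/ml and 52.6 (SD 9.03) without kinetin. The highest signal, in ckh2-1 replicate 1 at 200 ng/ml, was not matched by replicate 2.

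The change at 200 ng/ml averaged over genotypes was 0.25 ± 0.17 (adjusted p = 0.354), 0.28 in replicate 1 and 0.22 in replicate 2, and it was called in 1 of 29 alternatives. Its 95% interval ran from -0.11 to 0.61, against -1.28 to -0.51 for UGT76C2. UGT76C1 passed the filter only through groups with kinetin, so its change is not free of that selection, whereas UGT76C2 passed in all 10 groups. A direct test of these neighbours against each other was not run. By genotype the UGT76C1 change was 0.31 ± 0.30 in wild type, 0.13 ± 0.30 in ckh1-1 and 0.31 ± 0.30 in ckh2-1. With TSA it was -0.14 ± 0.30 against no addition (adjusted p = 0.834) and -0.45 ± 0.30 against 200 ng/ml kinetin (adjusted p = 0.419). The interval of the former, -0.77 to 0.48, spans changes in both directions.

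UGT76B1 showed signal in 1 condition. With TSA its signal was 114 and 78.9, and on the other 18 arrays it ran from 0.915 to 28.9 with a median of 3.07. The lowest TSA array was 2.73 times the highest other array, which was ckh1-1 replicate 1 without kinetin. Its partner, ckh1-1 replicate 2 without kinetin, was at 1.27.

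UGT76B1 passed the filter only through the TSA group, so that it had to be higher there to be tested at all. Against no addition, where its signal was 3.13 and 0.999, UGT76B1 rose with TSA by 2.06 ± 0.28 (adjusted p = 6.14e-05), 2.21 in replicate 1 and 1.90 in replicate 2. Against 200 ng/ml kinetin, where it was 1.25 and 1.05, it rose by 2.1 ± 0.28 (adjusted p = 4.06e-05). Of all tested probe sets, 5.84% were called higher in the former comparison and 6.62% in the latter. The summed founder markers were also highest with TSA, at 2805 and 2880, and their part in the rise of UGT76B1 was not tested. Both calls held under all 13 alternatives each, but the size depends on the added constant, since the signals without TSA are near 0. With a constant of 2.739 the rises were 4.38 and 4.65.

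Kinetin and genotype did not move UGT76B1 past the test. At 200 ng/ml its average change was -0.19 ± 0.16 (adjusted p = 0.472), and its differences between ckh1-1 and wild type and between ckh2-1 and wild type, averaged over levels, were 0.19 ± 0.16 and 0.07 ± 0.16. Its order of groups below TSA has no meaning at such signals, and all neighbours there overlapped.

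Of the 18 UGT76 list genes on the array, 5 passed the filter: the 3 members, AT5G05880 and AT3G46720. The other 13, UGT76D1, UGT76E1, UGT76E2, UGT76E11, UGT76E12, AT3G46650, AT3G46680, AT3G46690, AT3G55700, AT3G55710, AT5G05890, AT5G05900 and AT5G38040, had no group mean above the cutoff. At 200 ng/ml averaged over genotypes 2 of the 5 tested were lower and 0 higher, in a background of 10.5% called lower, with a list median of -0.19 against -0.05 over all tested probe sets. With TSA against no addition 1 was higher, UGT76B1, where 5.84% of all tested were called higher, and 0 lower, to which rescaling added UGT76C2. These counts include the members themselves. UGT76B1 was among the tested genes only because its TSA group passed the cutoff, so the TSA count is not free of that selection.

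**Figure D4:**
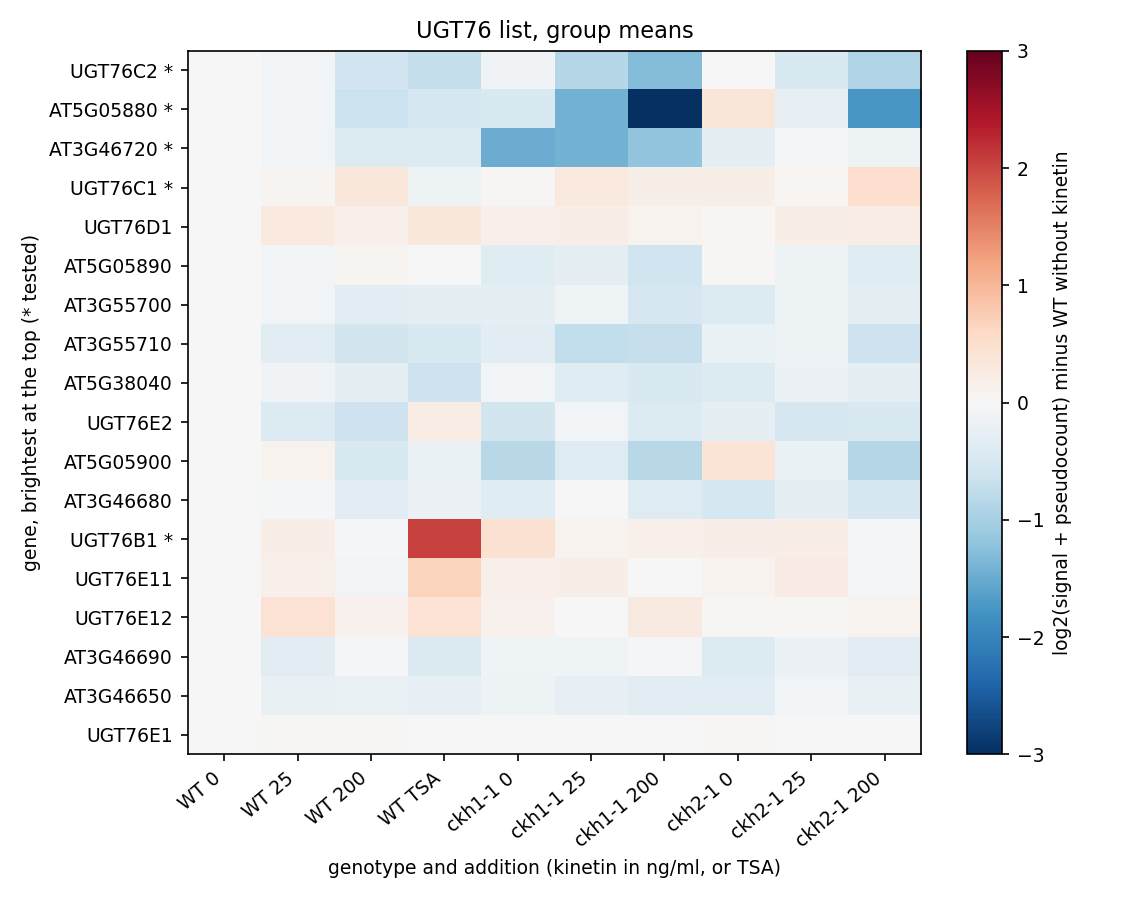
Group means of the 18 UGT76 list genes on the array as log2(signal + 27.39) minus wild type without kinetin, in colour from -3 to 3 (values past the ends take the end colour), by genotype and addition, with the brightest probe sets at the top and tested ones marked by asterisks. The strongest blue is AT5G05880 in ckh1-1 at 200 ng/ml and the strongest red is UGT76B1 with TSA.

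AT5G05880, the gene beside UGT76C1, is named by its locus tag in the array's table and in RefSeq, and no role is given for it. Its signal in ckh1-1 was 391.8 and 214 without kinetin, 159 and 114 at 25 ng/ml, and 7.81 and 13.9 at 200 ng/ml. In ckh2-1 it was 606 and 469, then 341 and 339, then 133 and 78.5. In wild type it was 631 and 262, then 550 and 265, then 236 and 267. The levels of each mutant did not overlap with each other, and those of wild type did. The wild type with TSA was at 308 and 248.

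In ckh1-1, AT5G05880 fell at 200 ng/ml by 3.06 ± 0.37 (adjusted p = 7.79e-06). In ckh2-1 it fell by 2.11 ± 0.37 (adjusted p = 0.000635), and its change in wild type was -0.65 ± 0.37 (adjusted p = 0.624). The wild type change was -1.32 in replicate 1 and 0.03 in replicate 2. The ckh1-1 response minus that of wild type was -2.41 ± 0.52 (adjusted p = 0.02), -2.25 and -2.57 in the replicates, in a comparison with 1.22% of probe sets called. The interaction call ended when any of 5 of the 8 arrays was left out, with adjusted p from 0.0716 to 0.162, and without the filter (adjusted p = 0.0671). These arrays were replicate 2 of wild type at 0 and at 200 ng/ml, replicate 1 of ckh1-1 at 0 ng/ml and both of ckh1-1 at 200 ng/ml. The corresponding ckh2-1 difference was -1.46 ± 0.52 (adjusted p = 0.572). At 200 ng/ml AT5G05880 was lower in ckh1-1 than in wild type by -2.87 ± 0.37 (adjusted p = 5.56e-05), where 4.29% were called, and lower than in ckh2-1 by -1.77 ± 0.37 (adjusted p = 0.0146), where 1.6% were called. The difference from ckh2-1 was no longer called without either ckh1-1 array or without ckh2-1 replicate 1, with adjusted p from 0.105 to 0.280.

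Over the 10 group means the log2 signals of AT5G05880 and UGT76C2 had a Pearson r of 0.90, which placed AT5G05880 at rank 190 among probe sets that map to 1 gene. UGT76C1, which lies between them, had r of -0.39 with both. These values describe the same 20 arrays and share their scaling. The next genes along, AT5G05890 and AT5G05900, were below the cutoff in every group, with signals from 17.6 to 70.0 and from 1.34 to 69.7.

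**Figure D5:**
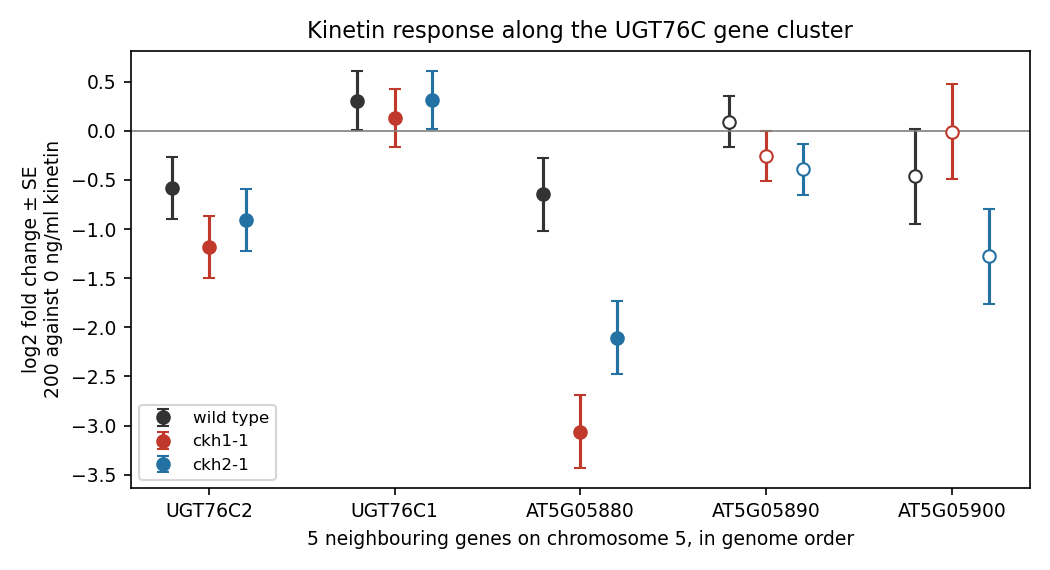
Log2 fold change ± SE at 200 against 0 ng/ml kinetin for 5 neighbouring genes of chromosome 5 in genome order, in wild type, ckh1-1 and ckh2-1, with open points for genes tested only without the filter. AT5G05880 lies lowest in ckh1-1 (-3.06) and ckh2-1 (-2.11), UGT76C2 lies below 0 in all 3 genotypes, and UGT76C1 between them lies slightly above 0.

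AT3G46720, likewise named by its locus tag, was lower in ckh1-1 than in wild type. Its signal was 122 and 162 in wild type without kinetin and 41.9 and 25.4 in ckh1-1, with no overlap. The ckh1-1 difference from wild type was -1.48 ± 0.37 at 0 ng/ml (adjusted p = 0.0304, with 2.72% of probe sets called) and -1.20 ± 0.21 over the 3 levels (adjusted p = 0.000597). The former ended when any 1 of its 4 arrays was left out (adjusted p from 0.0682 to 0.276) and without the filter (adjusted p = 0.0910), and the latter held under all 29 alternatives. In ckh2-1 the difference from wild type over the 3 levels was -0.0020 ± 0.21 (adjusted p = 0.998).

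Without the filter, where 6.96% of 22746 probe sets were called with TSA against no addition, UGT76E11 and AT5G38040 were among them. UGT76E11, at 33.7 and 17.2 with TSA and at most 15.8 elsewhere, was higher against no addition by 0.66 ± 0.19 (adjusted p = 0.0435). AT5G38040, at 8.91 and 10.8 with TSA against 34.0 and 25.8 without, was lower, with a log2 change of -0.62 ± 0.15 (adjusted p = 0.0197). Both lie below the cutoff in every group.

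The probe sets most like UGT76C2 over the 10 group means, among 8485 that map to 1 gene, were AT3G13000, AT2G18890, AT1G16680, AT1G03590 and AT1G09320, with r from 0.97 to 0.98. AT3G13000 fell at 200 ng/ml by 1.74 ± 0.28 in ckh1-1, from 274 and 219 to 64.7 and 45.3. The most opposite were AT1G49750, AT3G14920 and AT3G27870, each with r of -0.96. AT1G49750 rose at 200 ng/ml in wild type (1.16 ± 0.30), ckh1-1 (1.91 ± 0.30) and ckh2-1 (1.56 ± 0.30). For UGT76C1 they were AT2G21390, WLIM1, AT3G59910, AT2G29500 and AT4G24840, with r from 0.90 to 0.95, and WLIM1 encodes a LIM domain protein that bundles actin.

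For UGT76B1 the most alike were AT1G49150, AT4G31520, AT4G16146, AT1G04880 and AT3G24210, with r from 0.97 to 0.98. These values rest on the TSA group, since without it r ran from 0.20 to 0.70. AT4G16146 was at 482 and 330 with TSA against 65.7 and 57.3 without. The most opposite were AT5G25510, PR-1-LIKE and AT5G04420, with r from -0.97 to -0.96, and PR-1-LIKE fell with TSA by 2.33 ± 0.39. All correlations are descriptions over 10 means of the same arrays, chosen from many probe sets.

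Few other genes of the cytokinin pathway were matched. A match required a probe set that the array's probe-to-gene table maps to 1 gene, as 8486 of the 15469 tested probe sets did. A gene without a match may still be on the array. Of 10 type-A response regulators, which are early targets of cytokinin signalling and feed back on it, ARR15 and ARR16 were matched and ARR15 was tested. ARR15 rose at 200 ng/ml in wild type, from 24.9 and 24.7 to 254 and 94.4, by 1.83 ± 0.36. It passed the filter only through the 200 ng/ml groups, where it is high. It also rose in ckh1-1 (1.73 ± 0.36) and ckh2-1 (2.05 ± 0.36). The ARR15 signal went up at 200 ng/ml in the same segments in which the UGT76C2 signal was lower. Within genotypes that fall of UGT76C2 was called as deposited in ckh1-1 only. With TSA, ARR15 was at 18.3 and 5.29, a change of -0.43 ± 0.36 against no addition (adjusted p = 0.521). Without the first 200 ng/ml array of wild type its call did not hold (adjusted p = 0.177). The ckh1-1 call did not hold without replicate 2 of the untreated arrays (adjusted p = 0.0811) or without replicate 1 of the treated ones (adjusted p = 0.0639).

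Of 6 genes listed for cytokinin O-glucosylation and deglucosylation, 3 were tested, all beta-glucosidase family genes. BGLU44 fell at 200 ng/ml in ckh1-1, from 407 and 282 to 48.1 and 53.5, by 2.23 ± 0.37 (adjusted p = 0.000276). In ckh1-1 this response differed from that of wild type by -2.36 ± 0.52 (adjusted p = 0.0233). The interaction call ended when any of 5 of the 8 arrays was left out, with adjusted p from 0.0956 to 0.177, and without the filter (adjusted p = 0.0690). These were wild type replicate 2 at 0 ng/ml and replicate 1 at 200 ng/ml, ckh1-1 replicate 1 at 0 ng/ml and both ckh1-1 arrays at 200 ng/ml. BGLU45 and BGLU46 are known for acting on glucosides of lignin precursors. BGLU45, which passed the filter only through the TSA group, was higher with TSA than with 200 ng/ml kinetin by 1.43 ± 0.33 (adjusted p = 0.00569). Its adjusted p was 0.0837 without replicate 1 of TSA and 0.0552 without replicate 1 at 200 ng/ml. The transporter gene AZG1, the 1 tested of 9 transport genes, was called by limma in 0 of 28 comparisons, with an unadjusted p under 0.05 in 3, and in 5 on rescaled arrays. No gene listed for cytokinin synthesis, oxidation, receptors or response factors was matched to a probe set, and the 1 type-B regulator matched, ARR18, lay below the filter.

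Around the salicylic acid substrate of UGT76B1, 4 of 25 listed genes were matched and 3 tested. UGT71C3, which glucosylates methyl salicylate, fell with TSA, from 399 and 293 to 98.2 and 108, by 1.5 ± 0.34 (adjusted p = 0.00556). It was also lower at 200 ng/ml in ckh1-1 (-1.28 ± 0.34) and ckh2-1 (-1.18 ± 0.34). Against wild type, averaged over kinetin levels, UGT71C3 was lower in ckh1-1 (-1.30 ± 0.20) and ckh2-1 (-1.44 ± 0.20). The genotype calls of UGT71C3 held under all 29 alternatives. Its TSA call ended without replicate 1 of either group (adjusted p = 0.0814 and 0.0691). In ckh1-1 the kinetin call ended without the first untreated array (adjusted p = 0.298) or the second treated one (adjusted p = 0.213). For ckh2-1 it ended without any 1 of its 4 arrays (adjusted p from 0.0570 to 0.285) and without the filter (adjusted p = 0.0787). AT5G52810 rose with TSA against no addition by 1.14 ± 0.30 (adjusted p = 0.0145). Its adjusted p was 0.240 without replicate 1 of TSA and 0.141 without replicate 1 of the untreated group. SAG101, a lipase-like protein of plant immunity, was higher with TSA than with 200 ng/ml kinetin by 1.15 ± 0.23 (adjusted p = 0.00170). Its wild type signals were 147 and 106 with TSA, 47.0 and 35.6 at 200 ng/ml and 81.9 and 74.8 without addition, against which the change was 0.53 ± 0.23 (adjusted p = 0.160). With TSA, UGT76B1 and UGT71C3 thus moved in opposite directions.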

How the data were processed

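The deposited values are MAS5 signal intensities on the linear scale, per the submitters' processing notes, in 1 table of 22810 probe sets and 20 arrays. Neither the MAS5 version nor its scaling target is given in the sources used here. Groups came from the sample titles. After 64 control probe sets were left out, values were taken as log2 of the signal plus 27.39, 0.1 of the median trimmed mean. The 15469 probe sets that exceeded the 40th percentile (6.553 on the log2 scale, a signal of 66.5) in the mean of at least 1 group were tested. limma 3.58.1 (R 4.3.3, eBayes with trend) fitted the 10 group means to the 20 arrays, with Benjamini-Hochberg adjustment within each comparison. The procedure was tested on simulated data. Genes were named from the array's probe-to-gene table and RefSeq (TAIR10.1). Named genes were the UGT76 list, members of 9 other lists past the test, and the 5 probe sets most like each member, with the 3 most opposite for UGT76C2 and UGT76B1, which tied for the most calls. The members and lists were chosen with earlier results of these data known. Alternatives were quantile normalization, rescaling to a common trimmed mean, no filter, a constant of 2.739, the replicate number as a block, and each array left out, also with the block.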

Additional observations from a re-analysis of the deposited data

Results flagged for a closer look

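AT5G05880, the neighbour of UGT76C1, responded to 200 ng/ml kinetin more strongly in ckh1-1 than in wild type, by -2.41 ± 0.52 on the log2 scale (limma interaction, adjusted p = 0.02). The wild type arrays without kinetin, at 631 and 262, enter this difference. Without replicate 1 of that group the value was -3.005, and without replicate 2 it was -1.82 and no longer called, as was the case for 4 other arrays.

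The beta-glucosidase gene BGLU44 also differed between ckh1-1 and wild type in this response, by -2.36 ± 0.52 (limma interaction, adjusted p = 0.0233). This call too ended when any of 5 of the 8 arrays was left out, and in limma without the filter (adjusted p = 0.0690). BGLU44 fell in ckh1-1 to 48.1 and 53.5, while wild type at 200 ng/ml was at 404 and 300, against 444 and 224 without kinetin.

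BGLU46 signals at 200 ng/ml lay on opposite sides of the untreated arrays in ckh1-1 and ckh2-1. This describes 2 arrays per group, and limma called BGLU46 in 0 of 28 comparisons, with an unadjusted p under 0.05 in 1. Both ckh1-1 arrays (239 and 250) lay above those without kinetin (218 and 93.2), and both ckh2-1 arrays (148 and 109) lay below theirs (156 and 154). The largest gap between genotypes, ckh1-1 against wild type, was 1.08 ± 0.56 and did not pass limma's interaction test (adjusted p = 0.807). The difference between ckh1-1 and ckh2-1 was not tested.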

How the results depend on the processing

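Of the 3 members, only UGT76C2 gained calls when the scaling difference between replicate numbers was handled. It was called in 2 of 28 comparisons as deposited, 9 after rescaling to a common trimmed mean and 8 after quantile normalization. With replicate number in the fit as a replicate block it was called in 9. BGLU44, called in 6 as deposited, was called in 13 under each of these settings. The following UGT76C2 results were not called as deposited and were called under these settings. Under quantile normalization, rescaling and the block, in that order, these log2 values were -0.83, -0.91 and -0.91 in ckh2-1 at 200 ng/ml, -0.74, -0.75 and -0.75 in ckh1-1 at 25 ng/ml, and -0.42, -0.44 and -0.43 at 25 ng/ml over the genotypes. They were -0.64, -0.70 and -0.71 with TSA, and -0.51, -0.53 and -0.53 for ckh1-1 against wild type over the kinetin levels. The replicate numbers were not taken to pair the samples, since deviations of same-numbered arrays correlated above 0.1 in 27 of 45 pairs of groups (r from -0.13 to 0.64, median 0.20) and not in all. On rescaled arrays the correlation was above 0.1 in 26 of 45 pairs, with a median of 0.16. The array scaling does follow the number, and the fit to the deposited values leaves that scaling difference in its residual spread and SE. Over all probe sets the block raised the calls from 3063 to 7091 at 200 ng/ml over the genotypes. With TSA against no addition it raised them from 1696 to 5487. With the block, median SE for 2 against 2 arrays fell from 0.289 to 0.169.

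Leaving out 1 array at a time, with or without the block, UGT76C2 ranged from -1.02 to -0.14 in wild type at 200 ng/ml, -1.35 to -1.02 in ckh1-1, -1.05 to -0.76 in ckh2-1, and -0.58 to -0.29 at 25 ng/ml over the genotypes. It ranged from -1.15 to -0.26 with TSA and from -0.68 to -0.38 for ckh1-1 against wild type over the levels. With no block, leaving out the second untreated wild type array brought the TSA change (adjusted p = 0.0466) and the ckh1-1 difference (adjusted p = 0.0195) past the threshold. Leaving out the second wild type array at 25 ng/ml did so for the ckh1-1 difference (adjusted p = 0.0256). Directions turned for UGT76C2 in wild type at 25 ng/ml (-0.53 to 0.36), ckh1-1 against wild type without kinetin (-0.55 to 0.34), the ckh2-1 minus wild type response at 200 ng/ml (-0.77 to 0.12) and TSA against 200 ng/ml (-0.39 to 0.13). These signs also turned for UGT76C1 with TSA (-0.41 to 0.13), in ckh1-1 (-0.11 to 0.37) and in ckh2-1 at 200 ng/ml (-0.13 to 0.76), but not over the genotypes (0.10 to 0.40). For AT5G05880 they turned in ckh1-1 against wild type without kinetin (-1.05 to 0.14) and with TSA (-1.11 to 0.071). None of these turned values was called. The cause was not tested.

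UGT76C2 over the genotypes at 200 ng/ml and UGT76B1 with TSA kept direction and call under every alternative run. UGT76B1 passed the filter only through the TSA group, and most alternatives kept the same filtered probe sets, so they do not check that selection. Without the filter its limma adjusted p was 0.000106 against no addition and 7.34e-05 against 200 ng/ml kinetin.

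Signal limits what can be said of UGT76C1, whose group means passed the cutoff in 3 of 10 groups, and of UGT76B1 without TSA, whose signals were near 0.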
